A study of Mus musculus with 26 samples.

Results

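The immediate early and MAPK feedback genes are a set of 34 genes that cells switch on within minutes to hours of a growth factor, stress or activity signal, together with the genes that shut that signal down again. Members were chosen by name from the known pathway, with earlier results of these data known. All 34 were measured among the 19505 genes that could be named on the arrays. They fall into 9 families. The induced factors are 4 Fos, 3 Jun, 4 Egr, 3 Nr4a and 3 Ier genes and 5 others (Atf3, Maff, Npas4, Btg2, Arc). The feedback side holds 3 dual-specificity phosphatases and 6 Sprouty and Spred genes. The 3 Etv genes are transcription factors that respond to the signal and are not counted as its inhibitors.

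A growth factor receptor such as that for epidermal growth factor activates Ras, Raf, MEK and ERK in turn, and ERK phosphorylates factors that already sit on the promoters of immediate early genes, so that these need no new protein to be transcribed. Their products, mostly transcription factors, pass the signal to later genes. Dusp phosphatases remove the activating phosphates from ERK, Sprouty and Spred proteins block the route from receptor to Raf, and the PEA3 factors Etv1, Etv4 and Etv5 are transcribed under fibroblast growth factor signalling in the developing forebrain.

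The study asked how the synthetic glucocorticoid dexamethasone (Dex) acts on neural stem and progenitor cells with and without SOX2, a transcription factor that maintains them. Cells came from the cortical telencephalon of C57BL/6 mice at postnatal day 0 and grew in medium with EGF and FGF-1, so ERK-activating growth factors were present in every group. After passage 3, each culture was given 100 nM Dex or its ethanol vehicle for 4 h and 1 array was run per culture and treatment. The groups are WT with vehicle (6 arrays), WT with Dex (6), SOX2 KO with vehicle (7) and SOX2 KO with Dex (7). Each of the 13 cultures came from 1 animal, both sexes are pooled, and neither the sex of a culture nor the way the KO allele was made is given in the labels.

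The deposited values ran from 2.22 to 19.81 and are read here as log2 signals, since neither their base nor their normalization is given in the sources used here. Array medians lay between 6.44 and 6.84, but upper quartiles ran from 9.38 to 10.43. Sox2 was at 13.40 ± 0.70 (SD, n = 6) in WT vehicle and 4.65 ± 0.51 (n = 7) in KO vehicle, as the genotype labels say. The Dex-induced genes Fkbp5 and Per1 were higher with Dex in 12 of 13 cultures. WT culture 4 went the other way, with Fkbp5 2.03 and Per1 2.74 log2 units lower in the array labelled Dex, so results are given with and without it. Of 10 glucocorticoid target genes, 9 passed the test for Dex in each genotype without culture 4, beside 0.169% of all genes in WT and 0.251% in KO. The 10 were listed with earlier results of these data known, and include Fkbp5 and Per1, by which culture 4 was set apart. That count is therefore no independent check. With all cultures no gene passed for Dex in WT. The Dex array of KO culture 12 also stood apart, with a lower quartile of 5.38 against 5.05 in the next array. Over all genes the cultures fell into 3 array clusters (cultures 1, 2, 3, 7 and 8, then 4, 10 and 12, then 5, 6, 9, 11 and 13), each holding both genotypes, and no label names a batch. The only WT culture of the second cluster is culture 4. In the differences within array clusters given below, the second value therefore rests on that culture for WT. Over the 26 arrays the progenitor markers Nes, Vim and Fabp7 ran from 11.68 to 13.62, 17.41 to 19.00 and 18.58 to 19.42. The markers Olig1 (oligodendrocyte lineage), Map2 (neurons) and Aldh1l1 (astrocytes) ran from 15.17 to 17.06, 13.04 to 15.59 and 13.61 to 14.69. Others of the same lists were lower. Prom1 (progenitors) ran from 5.69 to 9.60 and Mog (oligodendrocyte lineage) from 3.30 to 5.10. Rbfox3 (neurons) ran from 4.43 to 6.34 and S100b (astrocytes) from 4.37 to 7.27. Since signals of different probe sets do not rank as RNA amounts, these values do not settle the cells' identity. Of 12 listed heat shock genes, which follow rough handling of cells, 9 were measured. None of these passed the test in any of the 5 comparisons as fitted. Between 0% and 0.564% of all genes passed there, so none among 9 lies near that share. The part of handling was not tested.

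Promoter stretches are shown for 5 members on which the Dex results turn, because the short element TGACG, the core of the site for CREB-type factors, was found in many of them. RefSeq windows (GRCm38.p6, from 250 bases before to 50 bases after the start site) were matched for 26 of the 34 members. Each stretch runs 5′ to 3′ on the gene's strand, in lower case, with every TGACG on either strand in capitals (CGTCA is its reverse complement). The stretches of Npas4 and Nr4a3 cover bases 250 to 131 before the start, and the others bases 120 to 1.
Npas4 (chr19:4990102-4990221, minus strand): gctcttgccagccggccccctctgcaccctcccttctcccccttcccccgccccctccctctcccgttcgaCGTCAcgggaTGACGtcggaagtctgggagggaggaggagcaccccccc
Nr4a1 (chr15:101266726-101266845, plus strand): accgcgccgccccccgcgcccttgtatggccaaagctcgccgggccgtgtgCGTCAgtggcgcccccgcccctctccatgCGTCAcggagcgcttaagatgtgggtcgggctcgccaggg
Nr4a3 (chr4:48045055-48045174, plus strand): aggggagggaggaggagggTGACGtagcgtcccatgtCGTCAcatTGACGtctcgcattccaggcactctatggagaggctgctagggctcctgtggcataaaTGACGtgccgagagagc
Fos (chr12:85473770-85473889, plus strand): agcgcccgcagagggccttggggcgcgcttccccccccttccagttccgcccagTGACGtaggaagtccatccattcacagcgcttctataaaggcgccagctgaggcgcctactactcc
Dusp6 (chr10:99263111-99263230, plus strand): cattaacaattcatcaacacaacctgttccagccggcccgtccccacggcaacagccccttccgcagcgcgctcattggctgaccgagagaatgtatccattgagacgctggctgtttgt

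TGACG on either strand was found in the windows of 14 of 26 members (53.8%) against 23% of the 27025 genes with a window. These are Atf3, Btg2, Dusp5, Egr2, Egr4, Fos, Fosb, Junb, Maff, Npas4, Nr4a1, Nr4a2, Nr4a3 and Spred2. The full palindrome TGACGTCA, which contains it, was found in Btg2 and Maff (7.69% of members, 2.03% of all). The Egr-factor element GCGNGGGCG was found in 6 members (23.1%, against 6.27% of all), and the CArG box, the site of serum response factor, in Dusp5 and Egr2 (7.69%, against 1.81%). The AP-1 element TGANTCA was in none of the 26 windows and in 8.97% of all. The palindromic glucocorticoid element GNACANNNTGTNC was found in Jund alone (3.85% of members, against 0.537% of all). A match in so short a window is a description and names no bound factor.

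Without Dex, KO and WT cultures did not differ in any member past an adjusted p of 0.05 (limma, Benjamini-Hochberg over all 19505 genes). By the same test 109 genes (0.559%) passed. By mean, 26 of the 34 members were higher in KO, beside 44.8% of all genes, and the median member was 0.16 log2 units higher in KO against -0.03 for all genes. Without culture 4 the count was 23 of 34, beside 42.3% of all. No member had all KO arrays above or all below the WT arrays, which held for 0.159% and 0.359% of all genes. At an unadjusted p under 0.05, 8 members were higher (1.88% of all genes) and 1 was lower (3.3%). Some cell type markers were lower in KO vehicle by mean. Among them were Aldoc (-1.71 log2 units) and Slc1a2 (-2.03) of 7 astrocyte markers, and Syt1 (-1.59) of 9 neuron markers. The astrocyte list averaged 10.33 in WT vehicle and 9.78 in KO vehicle, and the neuron list 9.31 and 8.97. The mean over the astrocyte list ran from 9.09 to 10.81 in WT vehicle and from 9.04 to 10.62 in KO vehicle, and over the neuron list from 8.94 to 9.88 and from 8.71 to 9.45. Their part in the members' values was not tested. In bulk RNA, fewer cells of a type and less RNA per cell cannot be told apart.

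**Figure D1:**
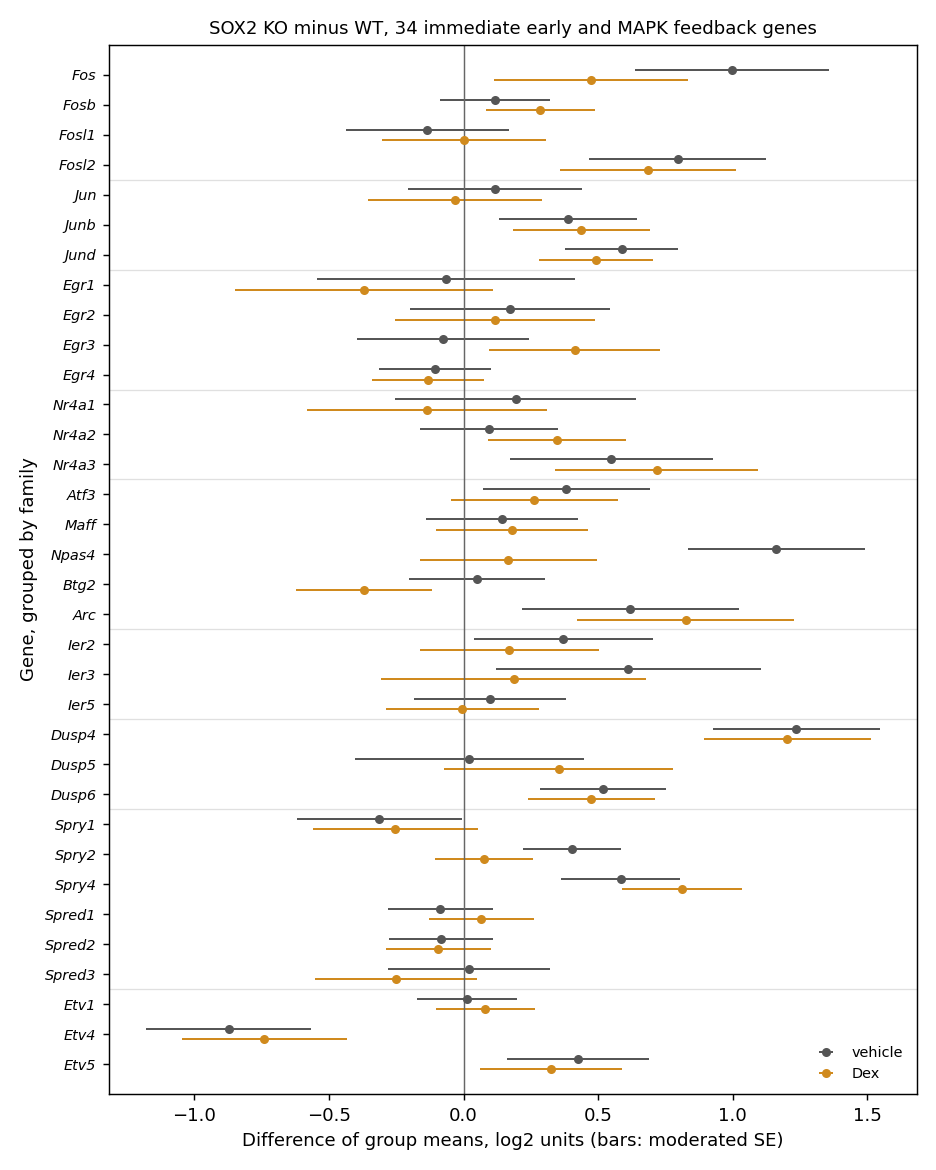
Difference between SOX2 KO and WT group means for each of the 34 members (x axis, log2 units, bars are moderated standard errors), with grey points for vehicle and orange points for Dex, and genes grouped by family on the y axis. Dusp4 lies at 1.24 and 1.20 and Etv4 at -0.87 and -0.74, and most other members cross or lie near 0.

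Among the AP-1 genes, Fos, the classical immediate early gene, ran from 6.92 to 8.71 (median 7.96) in WT vehicle and from 7.89 to 9.78 (median 9.00) in KO vehicle. The ranges overlap, with the highest Fos array in KO culture 10. The difference was 1.00 ± 0.36 log2 units (SE; limma adjusted p = 0.431). Within the 3 array clusters it was 0.19, 1.95 and 1.70, and with the cluster as a covariate it passed, at 1.16 with an adjusted p of 0.0411, but not with that covariate and without culture 4 (1.00, adjusted p = 0.224). Jund, the Jun member least dependent on stimulation, had a WT range of 9.36 to 10.71 (median 10.46) and a KO range of 10.66 to 11.09 (median 10.75), and differed by 0.59 ± 0.21 (adjusted p = 0.423). The lowest Jund array was that of WT culture 4, and without it the difference was 0.41. Fosl2, the Fra-2 partner of Jun, differed by 0.80 and Junb by 0.39. Jun (0.12), Fosb (0.12) and Fosl1 (-0.13) were closer to 0 than their standard errors.

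The Egr zinc finger factors gave small differences in vehicle. Egr1, the most used marker of ERK output, was at 14.80 ± 0.54 (SD, n = 6) in WT and 14.74 ± 0.76 (n = 7) in KO. Egr2 (0.17), Egr3 (-0.08) and Egr4 (-0.11) differed by less than their standard errors. The sign for Egr3 depends on the probe set: its other sets had means of 4.85 and 6.77 in WT vehicle and 5.17 and 7.24 in KO vehicle. Of the Nr4a orphan nuclear receptors, Nr4a3 was 0.55 ± 0.38 higher in KO, and Nr4a1 and Nr4a2 were 0.19 and 0.09 higher. Without culture 4 these 3 differences were smaller or turned sign, at 0.29, -0.04 and -0.10.

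Npas4, an activity-regulated factor best known from neurons, had the next smallest p of the members after Dusp4. Its mean signal over all arrays, 6.00, was below the lowest array median, 6.44. It ran from 4.65 to 6.75 (median 5.69) in WT vehicle and from 6.16 to 7.48 (median 6.66) in KO vehicle. Only the top of the WT range reached into the KO range. The difference was 1.16 ± 0.33 log2 units (limma adjusted p = 0.134), 0.97 without culture 4 (adjusted p = 0.307), and within array clusters 0.71, 2.35 and 1.00. Without WT culture 6 the adjusted p was 0.0270. The synaptic gene Arc differed by 0.62, the stress factor Atf3 by 0.38, the small Maf protein Maff by 0.14 and the antiproliferative gene Btg2 by 0.05. The Ier genes, short early-induced proteins, differed by 0.37 (Ier2), 0.61 (Ier3) and 0.10 (Ier5), and Ier3 alone ran from 6.75 to 10.03 in KO vehicle.

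On the feedback side, Dusp4, a nuclear phosphatase of ERK, had the smallest p of the members. It ran from 6.56 to 8.38 (median 7.14) in WT vehicle and from 7.93 to 9.51 (median 8.55) in KO vehicle. A single WT array, that of culture 3, lay inside the KO range. The difference was 1.24 ± 0.31 log2 units with a limma adjusted p of 0.0635, and the value within array clusters was 1.05, 2.01 and 1.13. It kept its sign in all 24 alternative fits and passed in 7 of them, among these quantile normalization (adjusted p = 0.0183), median centring (0.0207), array weights (0.0131), the cluster covariate (0.00826) and the culture as a random block (0.0365). Without culture 4 it was 1.15 with an adjusted p of 0.164, and 1.12 with 0.0775 when the cluster covariate was added. Over the fits that left out 1 culture the adjusted p ran from 0.0154 to 0.197.

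Dusp6, the cytoplasmic ERK phosphatase, was 0.52 ± 0.24 higher in KO (adjusted p = 0.853), and Dusp5, a nuclear one, differed by 0.02 ± 0.43. Spry4 ran from 12.44 to 13.60 (median 12.87) in WT and from 13.18 to 13.83 (median 13.44) in KO, a difference of 0.58 ± 0.22 (adjusted p = 0.531). Spry2 was 0.40 ± 0.18 higher. Spry1 was 0.31 lower, and Spred1, Spred2 and Spred3 differed by -0.09, -0.08 and 0.02. The Sprouty and Spred genes therefore split 3 and 3 by sign.

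Etv4 was the lone member lower in KO at an unadjusted p under 0.05. Its WT vehicle arrays ran from 8.98 to 10.34 (median 9.84) and its KO arrays from 7.98 to 9.23 (median 9.18). The groups overlap through 1 WT array, that of culture 6. The difference was -0.87 ± 0.31 log2 units (limma adjusted p = 0.395), and -0.70, -1.11 and -0.80 within the array clusters. It passed with the cluster covariate (-0.84, adjusted p = 0.00222), also without culture 4 (-0.78, adjusted p = 0.0111), and with array weights (-1.05, adjusted p = 0.0140). Etv1 differed by 0.01. Etv5, at a mean signal of 15.91 over all arrays, ran from 15.20 to 16.38 (median 15.76) in WT vehicle and from 15.55 to 17.09 (median 16.09) in KO vehicle, and was 0.42 ± 0.26 higher (adjusted p = 1.00). Maff, at a mean signal of 4.82, ran from 4.48 to 4.96 (median 4.80) in WT vehicle and from 4.21 to 5.73 (median 4.64) in KO vehicle, a difference of 0.14 ± 0.28 (adjusted p = 1.00). The ranges of both genes overlap between genotypes.

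With the cluster covariate 3 members passed in vehicle (Dusp4 and Fos higher, Etv4 lower), beside 1.93% of all genes, and with array weights 2 members (Dusp4, Etv4), beside 1.94%. With the cluster covariate and without culture 4, Etv4 alone passed. Array weights also brought the members' split to 19 higher and 15 lower, with a median of 0.04.

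**Figure D2:**
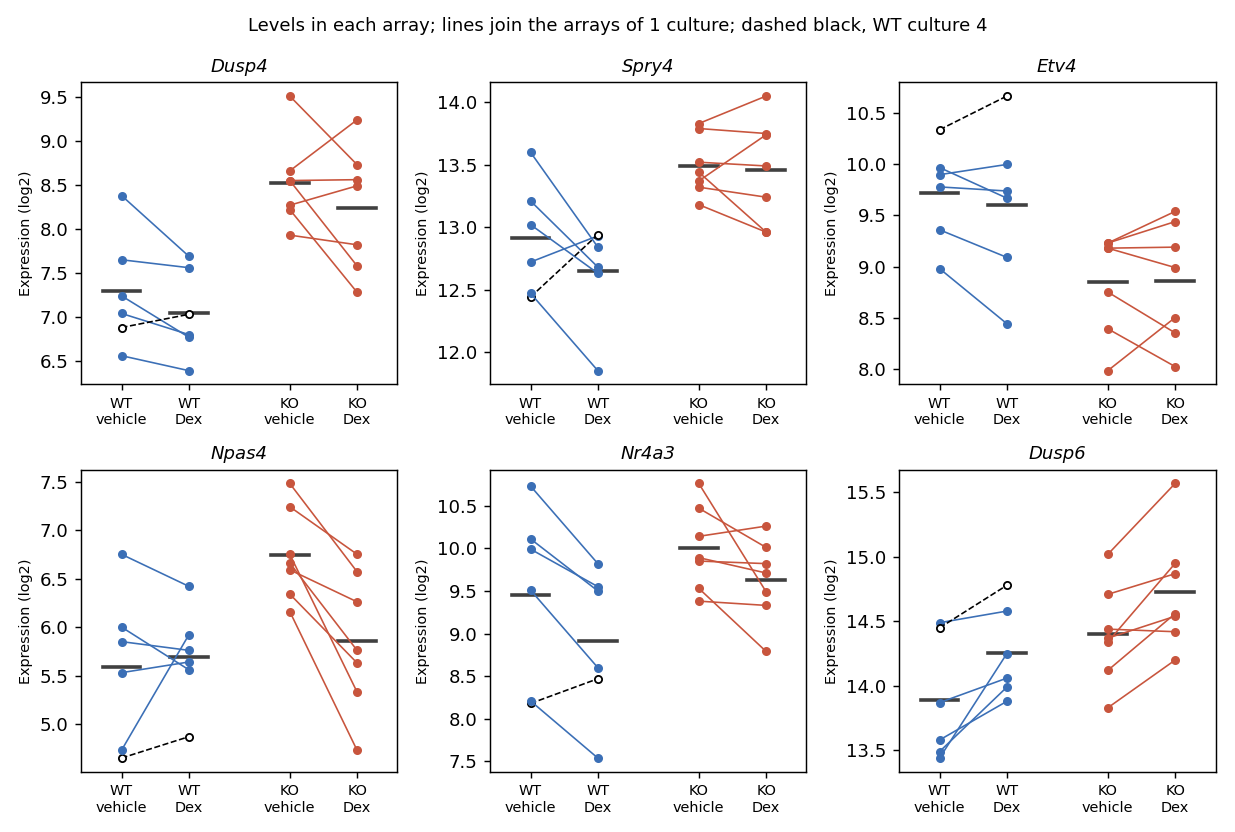
log2 signal (y axis) in every array for Dusp4, Spry4, Etv4, Npas4, Nr4a3 and Dusp6, by genotype and treatment (x axis), with blue points for WT, red points for SOX2 KO, lines joining the arrays of 1 culture, grey bars at the group means and WT culture 4 dashed in black. KO arrays of Dusp4 and Spry4 lie mostly above the WT arrays, all 7 Npas4 lines of KO fall with Dex, and all 6 WT lines of Dusp6 climb.

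With Dex in both genotypes, Dusp4, Spry4 and Etv4 had the smallest p of the members in the KO against WT comparison. No member passed, and 110 of all genes did (0.564%). By mean, 24 of 34 members were higher in KO, beside 41.3% of all genes, and 25 of 34 without culture 4, beside 39.3%. The median was 0.17. The split was 18 higher and 16 lower with array weights (median 0.03), 19 and 15 without KO culture 10 (0.05) and 20 and 14 without WT culture 5 (0.06). At an unadjusted p under 0.05, 5 members were higher (Dusp4, Spry4, Jund, Fosl2 and Arc, beside 2.14% of all) and 1 was lower (Etv4, beside 5.42%). These comparisons use other arrays than those in vehicle, but of the same 13 cultures.

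Spry4, an inhibitor of the receptor to Ras route, was the 1 member whose KO arrays all lay above all WT arrays, which held for 0.19% of genes. No member lay wholly below (0.292% of genes). Its WT Dex arrays ran from 11.85 to 12.94 (median 12.76) and its KO Dex arrays from 12.96 to 14.05 (median 13.49). The difference was 0.81 ± 0.22 log2 units (limma adjusted p = 0.109), 0.87 without culture 4 (adjusted p = 0.0988), and 0.74, 0.96 and 0.79 within array clusters. It passed with median centring (adjusted p = 0.0471) and with the cluster covariate (0.0292), but not with that covariate and without culture 4 (0.75, adjusted p = 0.0766).

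Dusp4 ran from 6.39 to 7.69 (median 6.92) in WT Dex and from 7.28 to 9.24 (median 8.49) in KO Dex. Overlap came from the lowest KO arrays. The difference, 1.20 ± 0.31, had a limma adjusted p of 0.0739 and passed in 7 of 24 alternative fits, and without culture 4 it was 1.20 with 0.124. Etv4 was at 9.60 ± 0.77 (SD, n = 6) in WT Dex and 8.86 ± 0.58 (n = 7) in KO Dex, a difference of -0.74 ± 0.31 (adjusted p = 0.510). Its highest array was that of WT culture 4, and without it the difference was -0.53.

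Npas4 differed by 0.17 ± 0.33 with Dex, running from 4.87 to 6.42 in WT and from 4.73 to 6.75 in KO. Jund differed by 0.49, Fosl2 by 0.69, Arc by 0.82 and Dusp6 by 0.47. Nr4a3 (0.72), Junb (0.44) and Egr3 (0.41) were also higher in KO, and Btg2 (-0.37), Egr1 (-0.37), Spred3 (-0.25) and Spry1 (-0.25) lower, none beyond an unadjusted p of 0.05. The lower Egr1 and Spred3 means rested on the Dex array of KO culture 12, and without culture 12 the differences were 0.08 and 0.11. With the cluster covariate 3 members passed (Dusp4, Spry4, Etv4), beside 2.04% of all genes, and with array weights 2 (Dusp4, Etv4), beside 2.88%. With the cluster covariate and without culture 4 none of these 3 passed (adjusted p = 0.0578, 0.0766 and 0.110).

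In WT cultures, no member passed the test for Dex. The paired limma fit called no gene at all (0% of 19505), although 445 genes were higher (2.28%) and 310 lower (1.59%) at an unadjusted p under 0.05, and with array weights 97 genes passed. By mean, 24 of 34 members were lower with Dex, beside 49% of all genes, with a median of -0.14. Without culture 4, 33 genes passed (0.169%), none of them a member, and 26 of 34 members were lower, beside 49%.

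Nr4a3 was the 1 member lower at an unadjusted p under 0.05. Its vehicle arrays ran from 8.18 to 10.73 (median 9.75) and its Dex arrays from 7.54 to 9.82 (median 9.05). In each culture the Dex array was lower by 0.91, 0.44, 0.91, 0.67 and 0.61 in cultures 1, 2, 3, 5 and 6, and higher by 0.29 in culture 4. The paired difference was -0.54 ± 0.19 log2 units (limma adjusted p = 0.998), -0.71 ± 0.18 without culture 4 (adjusted p = 0.338), and -0.68 with array weights (adjusted p = 0.0497).

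Dusp6 moved the other way and was the 1 member higher at an unadjusted p under 0.05. It ran from 13.44 to 14.49 (median 13.72) with vehicle and from 13.88 to 14.78 (median 14.16) with Dex. All 6 cultures had the higher value with Dex, culture 4 included, by 0.09 to 0.81. The paired difference was 0.37 ± 0.13 (limma adjusted p = 0.998), 0.38 without culture 4 and 0.52 with array weights (adjusted p = 0.0466). With those weights 2 members passed (Nr4a3, Dusp6), beside 0.497% of all genes. The weights were estimated without regard to the culture, although the fit pairs by culture.

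Egr3, with the next smallest p, ran from 6.59 to 7.82 (median 7.47) with vehicle and from 5.21 to 7.79 (median 7.11) with Dex, a paired difference of -0.48 ± 0.23 (adjusted p = 0.998). It rested on cultures 5 and 6, which were lower by 1.52 and 1.51, and the other 4 lay between -0.31 and 0.40. Egr3 has 3 probe sets that disagree: over the 26 arrays their correlations ran from -0.12 to 0.56, and the other sets gave -0.27 and 0.13 in WT.

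Of single cultures, 1 member was lower with Dex in all 6 WT cultures (Fosl1, by 0.06 to 0.53, beside 2.11% of all genes) and 1 was higher in all 6 (Dusp6, beside 2.07%). Without culture 4, 7 members were lower in all 5 cultures (Fosl1, Jun, Nr4a3, Ier2, Ier3, Dusp4 and Spry2), beside 4.96% of all genes, and 2 were higher (Dusp6 and Etv1), beside 5.03%. Without culture 4 the differences were -0.49 for Jun, -0.49 for Ier2, -0.55 for Ier3, -0.33 for Dusp4 and -0.42 for Spry4. In culture 4 all 5 of these were higher in the array labelled Dex, by 0.15 to 1.16. So were Nr4a3 (0.29) and Spry2 (0.60), whereas Fosl1 was lower there (-0.40). Spry4 was not lower in every other culture, with 0.21 in culture 1.

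**Figure D3:**
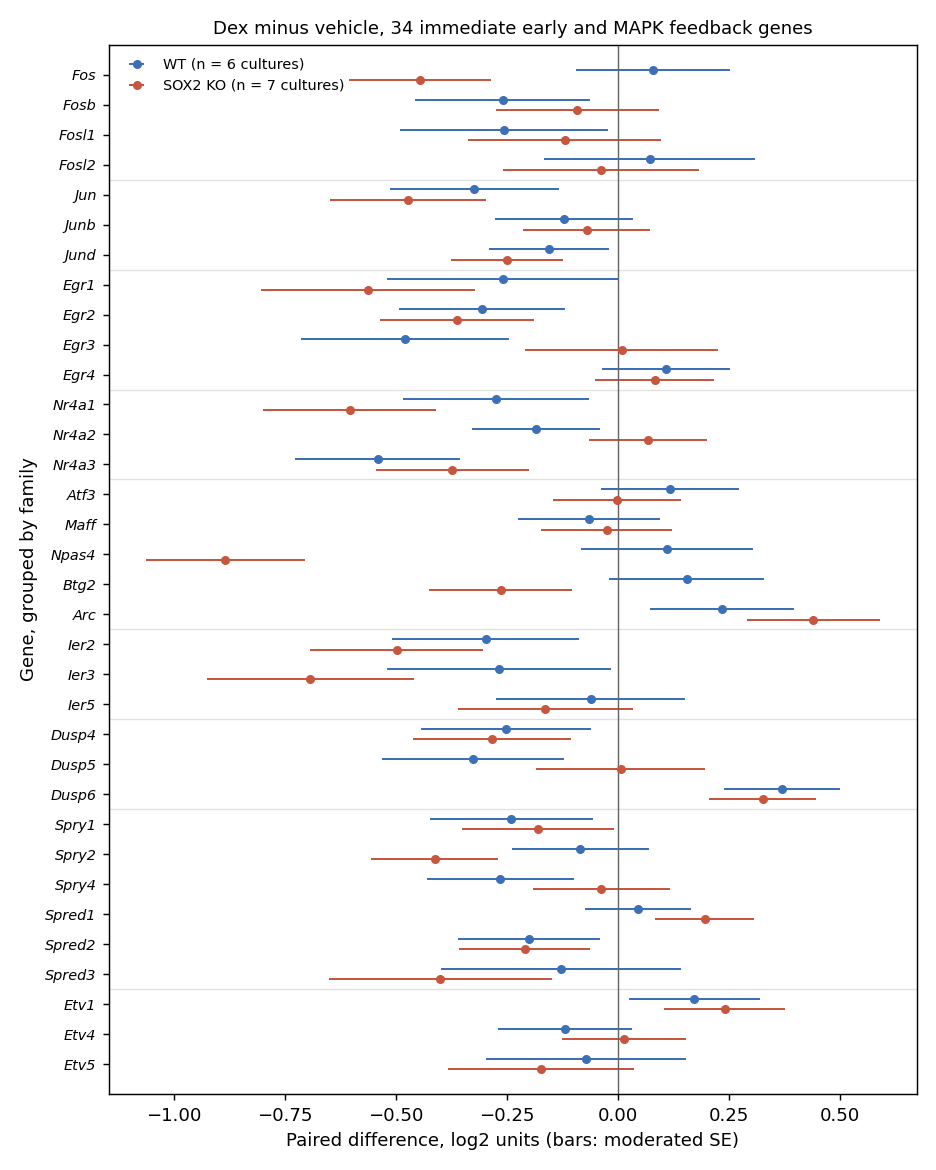
Paired difference between Dex and vehicle for each member (x axis, log2 units, bars are moderated standard errors), with blue points for the 6 WT cultures and red points for the 7 SOX2 KO cultures, and genes grouped by family on the y axis. Most points lie below 0, Dusp6 lies above 0 in both genotypes at 0.37 and 0.33, and Npas4 lies at 0.11 in WT and -0.88 in KO.

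In KO cultures, 14 genes passed the paired limma test (0.0718%), none of them a member. By mean, 25 of 34 members were lower with Dex, beside 54.5% of all genes, with a median of -0.17. The direction rested in part on culture 12: without cultures 4 and 12 the count was 23, beside 59.4% of all genes, and the median was -0.06. At an unadjusted p under 0.05, 9 members were lower (Npas4, Nr4a1, Nr4a3, Ier2, Ier3, Spry2, Fos, Jun and Egr1), beside 6.47% of all, and 2 were higher (Arc and Dusp6), beside 3.7%. Lower in all 7 cultures were 2 members (Npas4 and Spry2), beside 1.49% of genes, and higher in all 7 was none, beside 1.01%. Without culture 4, which enters this fit through the shared spread, 49 genes passed (0.251%) and no member did.

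Npas4 had the smallest p. It ran from 6.16 to 7.48 (median 6.66) with vehicle and from 4.73 to 6.75 (median 5.76) with Dex. These are low signals, with the mean over all arrays (6.00) below every array median, and the part of background in them was not tested. In cultures 7 to 13 the Dex array was lower by 0.90, 0.71, 0.33, 0.49, 1.43, 1.42 and 0.91. The group ranges overlap, but every pair went the same way. The paired difference was -0.88 ± 0.18 log2 units with a limma adjusted p of 0.101, 0.0640 without culture 4, and -0.80 with 0.163 without culture 12. It passed with array weights (-0.84, adjusted p = 0.0338), the 1 member to do so, beside 0.354% of all genes, and without WT culture 5 (0.0309). Without the pairing the adjusted p was 0.999.

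Nr4a1 ran from 8.90 to 9.96 (median 9.23) with vehicle and from 7.01 to 9.42 (median 9.22) with Dex. It was lower in 6 of 7 cultures, by 0.13 to 1.94, with culture 12 at the far end, and 0.02 higher in culture 9. The paired difference was -0.60 ± 0.19 (limma adjusted p = 0.342), and -0.38 without culture 12. Ier3, which protects cells from stress-induced death, ran from 6.75 to 10.03 (median 7.78) with vehicle and from 6.55 to 8.59 (median 7.23) with Dex. It was lower in 6 of 7 cultures, and the difference of -0.69 ± 0.23 (adjusted p = 0.365) was -0.62 without culture 12.

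Fos differed by -0.45 ± 0.16 with 5 of 7 cultures lower, Jun by -0.47 ± 0.18 with 5 lower and Ier2 by -0.50 ± 0.19 with 6 lower. Spry2, the Sprouty gene lower in all 7 cultures, differed by -0.41 ± 0.14, of which culture 12 gave the most (-1.20), and by -0.28 without it. Egr1 was lower in 6 of 7 cultures, but its mean of -0.56 ± 0.24 came largely from culture 12 (-2.57) and was -0.23 without it. Spred3 (-0.40) and Etv5 (-0.17) rested on that culture as well, at -0.04 and 0.10 without it. Nr4a3 differed by -0.37 ± 0.17 with 6 of 7 lower.

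Arc ran from 5.55 to 8.26 (median 7.05) with vehicle and from 6.24 to 8.54 (median 7.50) with Dex, and was higher in 6 of 7 cultures, by 0.44 ± 0.15 on average (limma adjusted p = 0.371). Dusp6 ran from 13.83 to 15.02 (median 14.37) with vehicle and from 14.20 to 15.57 (median 14.56) with Dex. It was higher in 6 of 7 cultures, by 0.33 ± 0.12 on average (adjusted p = 0.405). In 12 of the 13 cultures of both genotypes the array labelled Dex had more Dusp6 signal. That count includes WT culture 4, whose labels and glucocorticoid genes disagree. All other WT cultures were higher as well. Of the other phosphatases, Dusp4 differed by -0.28 with 4 of 7 lower, and Dusp5 by 0.01.

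The response to Dex was then compared between genotypes. No gene passed (0% of 19505, limma), with 255 genes at an unadjusted p under 0.05 for a higher response in KO (1.31%) and 433 for a lower one (2.22%). Of the members, 0 were among the first and 2 among the second, Npas4 and Fos. The Npas4 response was 0.99 ± 0.26 lower in KO than in WT (unadjusted p = 0.00149, adjusted p = 0.999), that is 0.11 in WT against -0.88 in KO. WT cultures split evenly, with 3 higher and 3 lower, and culture 5 at 1.19. The Fos response was 0.52 ± 0.24 lower in KO (adjusted p = 0.999), and 0.44 lower without culture 4. For both genes this difference, the Dex effect in KO and the genotype effect in vehicle use the same KO vehicle arrays. They are therefore not separate results. Btg2 had the next smallest p, at 0.16 in WT and -0.26 in KO, a difference of -0.42 ± 0.24 (adjusted p = 0.999). Its WT vehicle arrays ran from 8.64 to 10.64 (median 9.98), and culture 3 alone gave 1.19. Over all members, 20 of 34 had the lower response in KO, beside 55.2% of all genes. That split was 17 and 17 with quantile normalization, with median centring, with array weights and without culture 4. It was 18 higher and 16 lower without KO culture 12 and also without KO culture 13, and 22 higher and 12 lower without cultures 4 and 12.

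**Figure D4:**
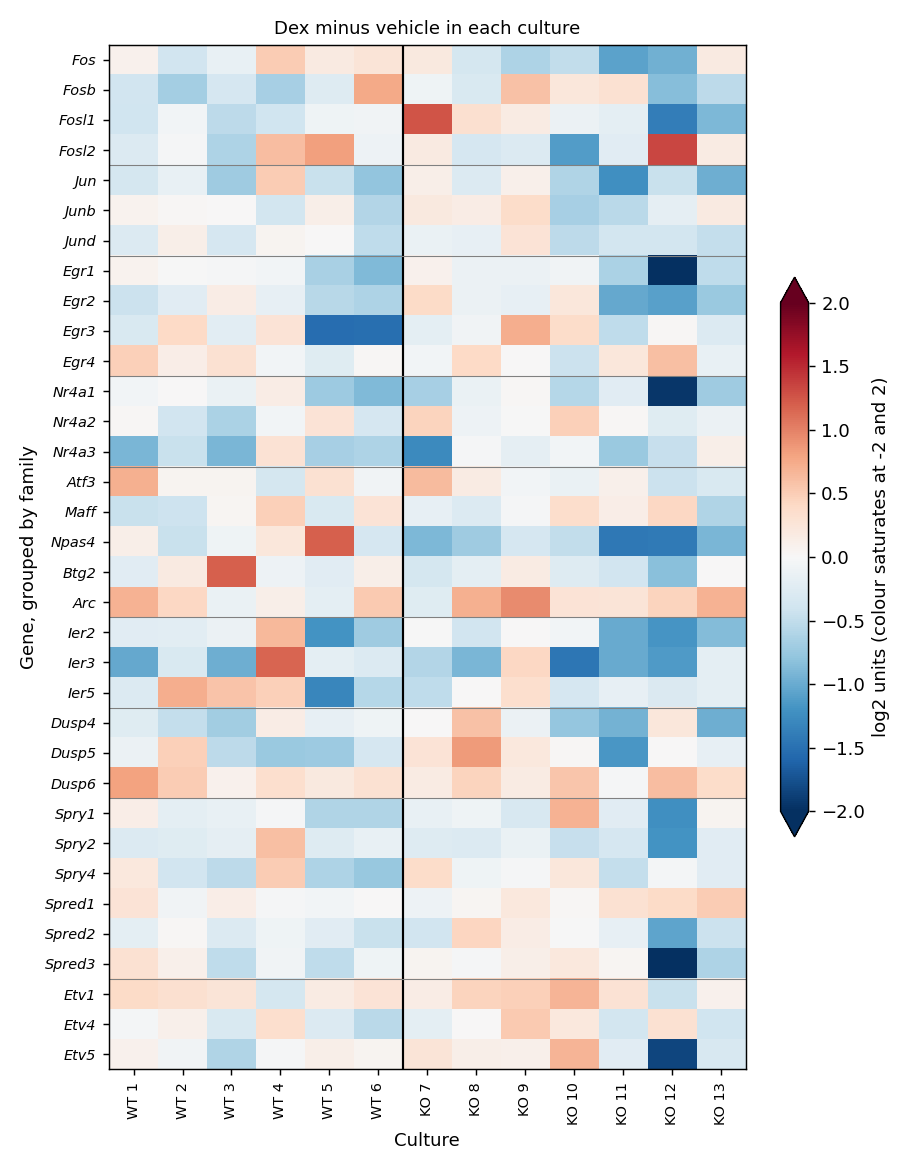
Difference between the Dex and the vehicle array of each culture (colour, log2 units, saturating at -2 and 2, blue lower and red higher with Dex) for the 34 members (y axis, grouped by family) in the 6 WT and 7 KO cultures (x axis). Blue prevails in WT cultures 3, 5 and 6 and in KO cultures 11, 12 and 13, and the Dusp6 row is red in 12 of 13 cultures.

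The members did not respond alike in every culture. Their mean difference with Dex was -0.06, -0.05, -0.20, 0.11, -0.25 and -0.27 in WT cultures 1 to 6, and -0.04, -0.01, 0.11, -0.10, -0.38, -0.58 and -0.28 in KO cultures 7 to 13. In the 6 cultures 3, 5, 6, 11, 12 and 13, between 24 and 25 of 34 members were lower, beside 47.1% to 52.5% of all genes in those arrays. In the other 7 cultures between 13 and 20 members were lower, beside 48.1% to 65.9% of all genes, the last in KO culture 7, where 52.9% of members were lower. By group, the mean over members was 9.48 ± 0.35 (SD, n = 6) in WT vehicle, 9.36 ± 0.38 in WT Dex, 9.74 ± 0.22 (n = 7) in KO vehicle and 9.56 ± 0.32 in KO Dex, with ranges that all overlap.

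Pairs of members were correlated above 0 more often than pairs of all genes. Over the 561 pairs of members, the median correlation of the Dex responses across 13 cultures, after removal of the genotype means, was 0.16, beside 0.01 for pairs among all genes, and 67.7% of pairs were above 0, beside 50.9%. Without cultures 4 and 12 the median was 0.16 as well. The pairs with the strongest correlations were Spred3 with Etv5 (0.92), Egr1 with Spred3 (0.90) and Egr1 with Nr4a1 (0.87), each including culture 12. Levels in vehicle arrays gave a median of 0.26, beside 0.10 for all genes. Nr4a3 with Spred2 (0.93) and Jun with Nr4a1 (0.90) led there. The points of such a correlation share their arrays, and array-wide differences such as the upper quartile enter every pair.

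The pathway upstream of the members was looked at next. Of 47 cascade genes listed (receptors, adaptors, Ras, Raf, MEK, ERK and their nuclear targets), 36 were measured. In the 5 comparisons 0 of 36 passed in either direction, beside 0% to 0.564% of all genes. None among 36 lies near that share. Those of smallest p in vehicle were the EGF receptor gene Egfr (-0.92 ± 0.26, limma adjusted p = 0.127, and 0.0274 with the cluster covariate) and Map2k1, which encodes MEK1 (-0.59 ± 0.18, adjusted p = 0.198), both lower in KO. The median cascade gene differed by 0.00 between genotypes in vehicle, -0.11 with Dex in WT and -0.18 with Dex in KO. Cascade genes were below 0 with Dex in 24 of 36 in WT and 29 of 36 in KO, beside 49% and 54.5% of all genes.

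Of 48 other early response genes listed, 43 were measured. In vehicle 2 of 43 were higher in KO past the threshold and none lower, beside 0.559% of all genes in either direction. Ier5l, an Ier5 relative, was higher by 1.63 ± 0.31 (limma adjusted p = 0.00484). Gadd45b, a stress-induced growth arrest gene, was higher by 0.96 ± 0.22 (adjusted p = 0.0251). Without culture 4 Ier5l was 1.43 higher (adjusted p = 0.0172) and Gadd45b 0.87 higher (adjusted p = 0.0962). With Dex in both genotypes Gadd45b was 1.03 ± 0.22 higher in KO (adjusted p = 0.0148) and Ier5l 1.26 ± 0.31 higher (adjusted p = 0.0521, and 0.0248 without culture 4). By mean 30 of 43 were higher in KO in each treatment, beside 44.8% of all genes with vehicle and 41.3% with Dex, with medians of 0.35 and 0.18. No gene of this list passed for Dex within either genotype, beside 0% of all genes in WT and 0.0718% in KO. None among 43 lies near those shares. The smallest p in KO belonged to Gadd45g (-1.08 ± 0.23, limma adjusted p = 0.119).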

How the data were processed

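One-colour array values of 26 RNA samples, 1 per culture and treatment, were used as the authors deposited them, as log2 signals per transcript cluster. Per the labels' protocols, biotin-labelled cRNA was hybridised. The summarisation, normalization and log base are not given in the sources used here, and no further normalization was applied. Of 22206 transcript clusters 19572 carried 1 gene symbol, and for the 55 genes with more than 1 the cluster of highest mean was used, giving 19505 genes.

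Genotypes were compared within each treatment with limma 3.58.1 (R 4.3.3) on group means over all arrays, and the effect of Dex and its difference between genotypes with the culture as a block. Each number marks 1 animal's culture. The lowest within-pair correlation was 0.31, and 22 of 26 arrays matched their own number best. P-values were adjusted over all genes (Benjamini-Hochberg, threshold 0.05). The number of arrays limits the precision. The tests were run on simulated data first.

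Members and lists were chosen with earlier results of these data known. All members are named, and those are described in full that passed the threshold, were among the 3 of smallest p in a comparison or had the highest or lowest mean signal. Of the pathway lists, genes past the threshold or else the 2 of smallest p are named. Gadd45g was named after its value was seen. Alternatives were quantile normalization, median centring, array weights, a covariate for the 3 array clusters, other priors and filters, the other handling of the culture, and each culture left out. Array weights were estimated from the group means alone, without the culture, also for the paired fits. The fit without cultures 4 and 12 was chosen after seeing the data.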

Additional observations from a re-analysis of the deposited data

Results flagged for a closer look

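In each of 136 sets (34 members in 4 groups), the gap from the highest or lowest array to its nearest neighbour was compared with the group's range, and 6 sets passed Dixon's critical value. Chance flags about 1 in 20 groups. In KO cultures with Dex, culture 12 was far from the rest for Fosl2 (9.65, next 8.26), Btg2 (8.71, next 9.48) and Spred3 (6.48, next 8.78), and culture 10 for Egr4 (5.00, next 5.64). In KO cultures with vehicle, culture 10 was low for Nr4a2 (8.70, next 9.55). In WT cultures with Dex, culture 5 was low for Spry4 (11.85, next 12.63). The 3 values of culture 12 come from the array whose lower quartile stood apart, and the part of that array in them was not tested.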

How the results depend on the processing

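No member passed as fitted. In some alternatives Dusp4, Etv4, Fos, Npas4, Spry4, Nr4a3 or Dusp6 passed, as given with each. The count of all genes past the threshold moved more. For KO against WT in vehicle (109) it was 169 with quantile normalization, 378 with array weights, 376 with the cluster covariate and 210 with that covariate and without culture 4, and 75 to 143 with 1 culture left out. With Dex (110, of which 36 higher and 74 lower) it was 171 with quantile normalization (77 and 94), 152 with median centring (67 and 85), 72 on the compared groups alone, 561 with array weights, 397 with the cluster covariate, 216 with it and without culture 4, and 69 (without WT culture 1) to 160 with 1 culture left out, 71 of them without KO culture 13. For Dex in WT (0) it was 97 with array weights, 31 with the cluster covariate and without culture 4, 58 without cultures 4 and 12, and 0 to 33 with 1 culture left out, where 33 is without culture 4. For Dex in KO (14) it was 31 on the compared groups alone, 69 with array weights, 43 with the cluster covariate with or without culture 4, 66 without cultures 4 and 12, and 3 (without KO culture 13) to 49 (without WT culture 4), with 8 without KO culture 8 and 9 without KO culture 7 or 11. For the difference in response (0) it was 4 with the cluster covariate. Without the replicate block, 0 genes passed for Dex in WT and 10 in KO, against 14 with it. With the culture as a random replicate block (correlation 0.49), 136 and 141 genes passed between genotypes, and Dusp4 passed in both treatments (adjusted p = 0.0365 and 0.0446). The causes of these moves were not tested. The median over members kept its sign for both genotype comparisons and both Dex effects in every alternative, from 0.03 with array weights to 0.35 without WT culture 3 for the genotype comparisons. For the difference in response the median was -0.04 and turned to 0.05 without KO culture 12 and to 0.08 without cultures 4 and 12. Limits are the unknown normalization, array clusters that no label names, culture 4, whose labels and glucocorticoid genes disagree, and the 3 disagreeing probe sets of Egr3.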
